A study of Homo sapiens with 11 samples.

Results

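The comparison described here set CEM/BTZ-200, a bortezomib-resistant leukemia subline grown without the drug, against CEM/WT, its untreated parental line. It involved 3 of the 11 samples of the series, 1 of CEM/BTZ-200 and 2 of CEM/WT, and covered the 17372 genes that passed a filter on dim probes. All cells descend from CCRF-CEM, an established human T-cell acute lymphoblastic leukemia line, and the study selected its sublines by stepwise exposure to bortezomib (BTZ). CEM/BTZ-200 had been selected at 200 nM BTZ and was then withdrawn from it, for several months by the labels and for several weeks by the study's methods. CEM/BTZ200 is the same subline harvested in 200 nM BTZ (1 sample), and CEM/BTZ100 (1 sample) and CEM/BTZ7 (3 samples) were selected and harvested at 100 nM and 7 nM. The sources differ on how these sublines met the drug: the labels have them kept in BTZ, with fresh medium and drug 24 h before harvest, whereas the study's methods put a drug-free week before a 24 h exposure. Continued drug and renewed exposure therefore cannot be told apart in any comparison with them, and "with drug" below means BTZ present at harvest. CEM/WT received no BTZ, and a further 3 samples, CEM/WT_BTZ, were parental cells given 7 nM BTZ for 24 h. Whether the numbered replicates came from separate cultures is not stated, and p-values therefore cover no more than the spread among these RNA samples, possibly a technical one. A subline is 1 selected population, so that its drift in culture and its resistance cannot be told apart.

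Bortezomib is a boronic acid that binds the catalytic threonine of the PSMB5 subunit of the 20S proteasome, the barrel in which ubiquitin-tagged proteins are degraded after the 19S regulatory particle has unfolded them. Inhibition leads to an accumulation of unfolded proteins, to the heat shock and unfolded protein responses and, in sensitive leukemia cells, to apoptosis. Cells kept in the drug are known to acquire PSMB5 mutations and to make more proteasome subunits, and a drug-free resistant subline allows features that last without the inhibitor to be seen apart from those measured in its presence.

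Levels are given as log2 of the quantile-normalized array intensity of 1 probe for each gene, and they can be compared between samples but not between genes. Fold changes were fitted with limma over all 6 groups with a term for the dye (Cy5 for CEM/BTZ-200 and for CEM/WT replicate 2, Cy3 for CEM/WT replicate 1), so that they differ slightly from the plain difference of the levels. Because CEM/BTZ-200 had 1 sample, its spread was taken to be that of the replicated groups, and a call is an adjusted p under 0.05 after Benjamini-Hochberg adjustment over all genes. CEM/BTZ-200 and CEM/BTZ200 were the dimmest samples, with median raw intensities of 67.3 and 67.96, against 124 to 188 in the other 9. In CEM/BTZ-200, 73.8% of the probes exceeded the 95th percentile of the negative control spots, the lowest share of the 11 samples, against 81.6% and 86.4% in CEM/WT. A gene under that percentile is called below background here. Levels in CEM/BTZ-200 correlated with those in CEM/WT at 0.961 and 0.963 over genes, and the CEM/WT samples with each other at 0.984. All 14 T lymphoblast markers lay above background in CEM/BTZ-200 and in both CEM/WT samples. Of 6 myeloid markers, 4 were above background in CEM/BTZ-200 and 6 in CEM/WT.

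In CEM/BTZ-200, 228 genes were higher and 306 lower than in CEM/WT, which was 534 of 17372 (3.07%; 1.31% higher and 1.76% lower). With median centring in place of quantile normalization, which put the median over all genes at 0.25, 210 were higher and 149 lower. The median log2 fold change was 2.77 among the called higher genes and -1.94 among the called lower genes, and 0.02 over all genes. The smallest change that was called had a size of 1.26 on the log2 scale. At an unadjusted p under 0.05 limma had 3267 of the 17372 genes, 7.71% higher and 11.1% lower. Unadjusted counts of the gene lists below are to be read beside that share. Of the 228 higher genes, 42 were below background in both CEM/WT samples, and of the 306 lower genes, 69 were below background in CEM/BTZ-200. Genes called lower had a median length of 59.3 kb and genes called higher 28.8 kb, against 25.5 kb for all genes; the part of gene length in the calls was not tested. The count rested on single samples of the other groups. Without CEM/WT replicate 2 it was 0 (2183 genes at an unadjusted p under 0.05), without CEM/WT replicate 1 it was 79, and without CEM/BTZ7 replicate 1, 2 or 3 or CEM/WT_BTZ replicate 1 or 2 it was 218, 89, 319, 207 and 231.

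**Figure D1:**
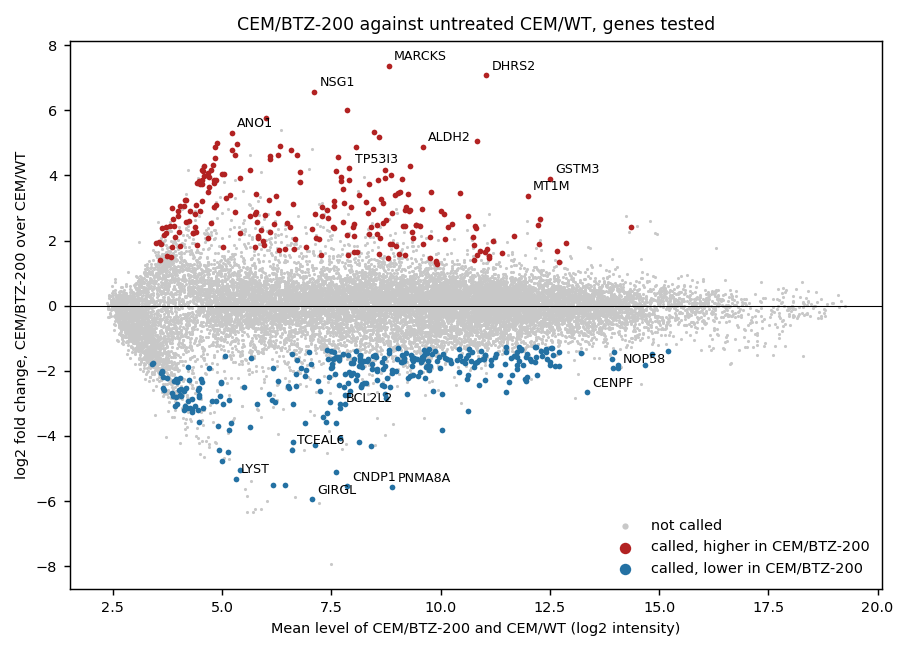
Log2 fold change of CEM/BTZ-200 over CEM/WT (y axis) against the mean log2 level (x axis) for nearly all of the 17372 genes tested, with genes called higher and genes called lower in color. Called genes lie on both sides of 0, and none has a change smaller than 1.26 in size.

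The largest rises were in genes for an actin-binding substrate of protein kinase C, for reductases and for neuronal and membrane proteins. MARCKS, which binds actin and membrane phosphoinositides and is released on phosphorylation by protein kinase C, stood at 12.62 in CEM/BTZ-200, against 5.002 and 5.001 in CEM/WT. Its log2 fold change of 7.37 (SE 0.53, adjusted p = 0.0048) was the largest among the called genes. DHRS2, a short-chain dehydrogenase, had 14.37 in CEM/BTZ-200, against 7.60 and 7.82 in CEM/WT (log2 fold change 7.08, adjusted p = 0.0264). Both genes were far above either parental sample, and both were also high in the sublines harvested in BTZ, where MARCKS had log2 fold changes over the same CEM/WT samples of 7.60 in CEM/BTZ7, 8.60 in CEM/BTZ100 and 8.42 in CEM/BTZ200, and DHRS2 of 5.60, 5.59 and 7.55.

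Genes with a neuronal name followed. NSG1, a protein of neuronal endosomes, had a level of 10.23 in CEM/BTZ-200, against 4.40 and 3.56 in CEM/WT (log2 fold change 6.57, adjusted p = 0.00853). NPTX2, a neuronal pentraxin, had 10.82 in CEM/BTZ-200, against 5.74 and 4.06 in CEM/WT (6.02, adjusted p = 0.0299), and its change in the sublines with drug was 4.38, 2.86 and 2.71. The parental samples differed from each other in both genes, by less than their distance to CEM/BTZ-200. OSR2, a zinc finger transcription factor, had 8.81 in CEM/BTZ-200, against 3.67 and 2.76 in CEM/WT, where it was above background in 1 of 2 samples (5.75, adjusted p = 0.0148). Another probe of OSR2 gave 1.77.

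The rise of ANO1 was not shared by the subline selected at the lowest dose. ANO1, a calcium-activated chloride channel, was at 7.88 in CEM/BTZ-200, against 2.58 and 2.54 in CEM/WT, where it was below background. It was at least 26.5-fold higher (adjusted p = 0.00219), where "at least" means that the background percentile was used in place of the unmeasured parental level. ANO1 was likewise at 2.54, 2.53 and 2.59 in CEM/BTZ7, at 3.22 in CEM/BTZ100 and at 7.48 in CEM/BTZ200. The direct comparison of CEM/BTZ-200 with CEM/BTZ7 gave a level at least 31.1-fold higher (adjusted p = 0.00199). ANO1 thus separated the samples of the 200 nM subline, with and without drug, from all others named here.

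The remaining genes among the 12 largest rises included enzymes and actin regulators. FAM131A had 11.04 in CEM/BTZ-200, against 6.32 and 5.91 in CEM/WT (log2 fold change 5.18, adjusted p = 0.00219), and its other probes gave 3.42 and 0.55. TMSB15A, a thymosin that binds actin monomers, had 13.22 in CEM/BTZ-200, against 8.16 and 8.74 in CEM/WT (5.06, adjusted p = 0.0391). MYO1D, a class I myosin, had 8.97 in CEM/BTZ-200, against 3.93 and 3.46 in CEM/WT (4.90, adjusted p = 0.0445). The CEM/BTZ-200 value lay above both parental values for each of these genes. STON1, an endocytic adaptor, and CBR3, a carbonyl reductase, did not exceed background in either CEM/WT sample, and CEM/BTZ-200 had at least 17.3-fold and 26.6-fold more (adjusted p = 0.0113 and 0.00513). ALDH7A1, an aldehyde dehydrogenase of lysine breakdown, had 11.05 in CEM/BTZ-200, against 5.38 and 6.43 in CEM/WT (5.32, adjusted p = 0.0324). Of its other probes, one gave 2.35 and another moved the other way, with -2.41. The latter was at 2.70 in CEM/BTZ-200, below background, so that -2.41 is no measured size.

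The largest falls involved a long noncoding RNA, a dipeptidase, a co-chaperone and secreted proteins. GIRGL, a long noncoding RNA, was at 4.23 in CEM/BTZ-200, below background, against 9.69 and 10.08 in CEM/WT, and was at least 42.6-fold lower (adjusted p = 0.00958). PNMA8A, of the paraneoplastic antigen Ma family, was at 6.14 in CEM/BTZ-200, against 11.42 and 11.85 in CEM/WT, and fell by 5.58 on the log2 scale (SE 0.32, adjusted p = 0.00219). Other probes of PNMA8A gave -3.29 and -0.12. CNDP1, the carnosine dipeptidase, was at 5.17 in CEM/BTZ-200, against 10.39 and 10.67 in CEM/WT (log2 fold change -5.54, SE 0.26, adjusted p = 0.00219). The parental samples lay close together in these genes and well above CEM/BTZ-200. DNAJC12, a co-chaperone of the aromatic amino acid hydroxylases, was at 3.68 in CEM/BTZ-200, against 9.17 and 9.18 in CEM/WT, at least 26.0-fold lower (adjusted p = 0.00958).

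ECM1 and LYST had lower values in CEM/BTZ-200 than in any subline with drug. ECM1, a secreted matrix glycoprotein, was at 3.23 in CEM/BTZ-200, against 8.99 and 9.23 in CEM/WT, at least 24.9-fold lower (adjusted p = 0.0148). Its log2 fold changes over CEM/WT were -1.60 in CEM/BTZ7, -2.14 in CEM/BTZ100 and -3.49 in CEM/BTZ200. LYST, a regulator of lysosome size and of lytic granules, was at 2.73 in CEM/BTZ-200, against 7.70 and 8.06 in CEM/WT, at least 10.6-fold lower (adjusted p = 0.0122), with -0.83, -1.55 and -1.92 in the same sublines. Set against CEM/BTZ7, CEM/BTZ-200 was at least 7.53-fold lower in ECM1 (adjusted p = 0.0430) and at least 6.19-fold lower in LYST (adjusted p = 0.0240).

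Further falls went to background in CEM/BTZ-200. CYTL1, a small secreted protein of the myeloid list, was at 2.94 in CEM/BTZ-200, against 7.76 and 7.99 in CEM/WT (at least 10.6-fold lower, adjusted p = 0.00308). FMN1, a formin that nucleates actin filaments, was at 2.63 in CEM/BTZ-200, against 7.37 and 7.05 in CEM/WT (at least 6.66-fold lower, adjusted p = 0.00347). USP44, a deubiquitinase, was at 2.47 in CEM/BTZ-200, against 7.99 and 7.04 in CEM/WT (at least 8.24-fold lower, adjusted p = 0.0172). All parental values of these genes were above background and all CEM/BTZ-200 values below it. LINC00479, a long noncoding RNA, stayed measurable, with 4.87 in CEM/BTZ-200, against 10.17 and 10.54 in CEM/WT (log2 fold change -5.11, adjusted p = 0.0117). ATP11A, a phospholipid flippase, was at least 7.22-fold lower (adjusted p = 0.0235), while another of its probes gave a log2 fold change of 1.69.

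**Figure D2:**
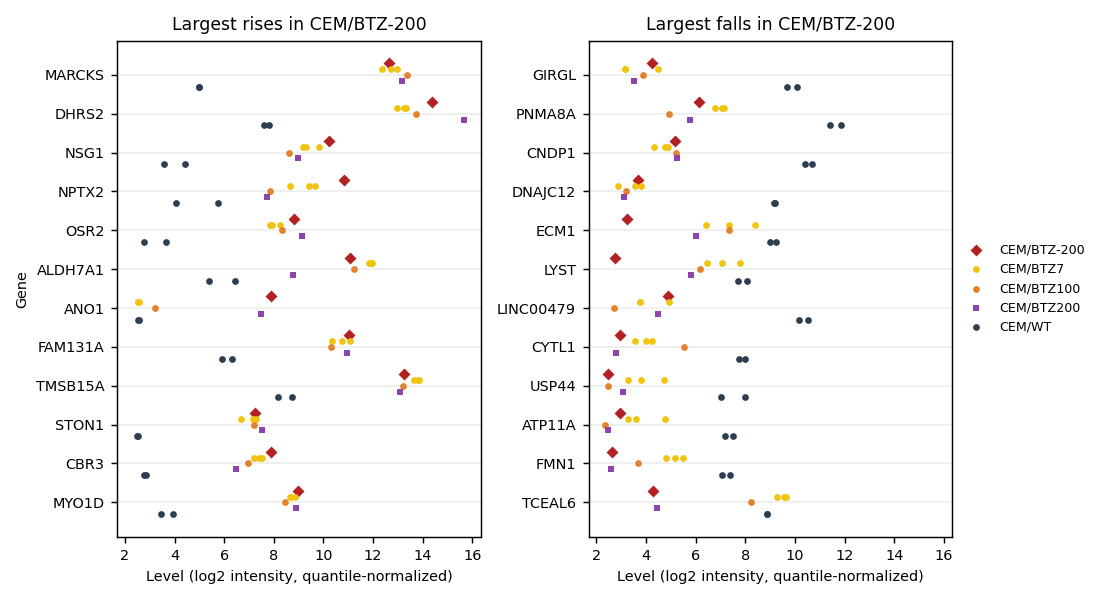
Log2 levels (x axis) of the 12 genes with the largest called rises and the 12 with the largest called falls (rows), with 1 point for each sample of CEM/BTZ-200, CEM/BTZ7, CEM/BTZ100, CEM/BTZ200 and CEM/WT. CEM/BTZ-200 lies apart from both CEM/WT samples in every row, and ANO1 is at 7.88 there while the 3 CEM/BTZ7 samples lie between 2.53 and 2.59.

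Of 57 called genes that are named by rule, 22 lost their call in no fit that left out 1 sample other than CEM/WT replicate 2. These were MARCKS, NSG1, ANO1, FAM131A, CBR3, GIRGL, PNMA8A, CNDP1, DNAJC12, LINC00479, CYTL1, FMN1 and TCEAL6, and, among the genes described below, BCL2L2, UCHL1, SCRN1, ALDH2, GSTM3, GSTM1, EPCAM, CENPF and TP53I3. The other 35 lost their call without at least 1 of the other 7 samples. Without CEM/WT replicate 2 all 57 lost it, with adjusted p-values between 0.0612 and 0.267.

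Genes of the proteasome itself held no call against CEM/WT. None of the 14 measured genes of the constitutive 20S core and none of the 16 measured genes of the 19S particle was called in either direction. Over all genes 3.07% were called, so that a count of 0 in lists of this size is near the background. In the lists 6 of 14 and 7 of 16 genes lay above 0, against 51.1% of all genes. At an unadjusted p under 0.05 in limma there were 3 and 2 genes, against 3267 of all 17372. The medians were -0.07 and -0.05 on the log2 scale. With the samples scaled to their 75th percentile in place of quantile normalization these medians were 0.41 and 0.30 (all genes -0.02), and with median centring they were 0.68 and 0.57 (all genes 0.25). The sublines harvested in BTZ, set against the same CEM/WT samples, had medians for the 20S core of 0.84 in CEM/BTZ7, 1.09 in CEM/BTZ100 and 1.04 in CEM/BTZ200, and for the 19S particle of 0.88, 1.09 and 1.14.

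PSMB5, the subunit that bortezomib binds, had a level of 15.06 in CEM/BTZ-200, against 14.23 and 14.05 in CEM/WT. The CEM/BTZ-200 level was above both, but the log2 fold change of 1.02 (SE 0.26, adjusted p = 0.0949) did not pass the test. PSMB5 had 1.45 in CEM/BTZ7, 1.81 in CEM/BTZ100 and 1.73 in CEM/BTZ200, each over the shared CEM/WT samples. PSMA3, a structural alpha subunit, stood at 12.81 in CEM/BTZ-200, against 14.90, 14.81 and 14.77 in CEM/BTZ7 and 13.06 and 13.21 in CEM/WT. The CEM/BTZ-200 level was below all of these, and its difference from CEM/BTZ7 was called (log2 -2.03, adjusted p = 0.0198).

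Set directly against CEM/BTZ200, the same subline with drug, 0 of 14 genes of the 20S core and 0 of 16 of the 19S particle lay above 0, compared with 9171 of all 17372 genes. The medians were -1.12 for the 20S core and -1.13 for the 19S particle, compared with 0.04 over all genes, and they were -0.96 and -1.19 with 75th percentile scaling and -0.92 and -1.14 with median centring. None of the 30 was called by limma in this comparison, where 0.317% of all genes were called. At an unadjusted p under 0.05 in limma there were 9 and 10 of them, against 1867 of all 17372 genes. Set against CEM/BTZ7, the medians were -0.82 and -0.96, with PSMA3 and PSMA4 of the core and PSMC6, an ATPase of the 19S particle, called lower, but the median of the 20S core turned to 0.06 with 75th percentile scaling and to 0.26 with median centring, where all genes had 0.26, and that of the 19S particle was -0.36 and -0.16.

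**Figure D3:**
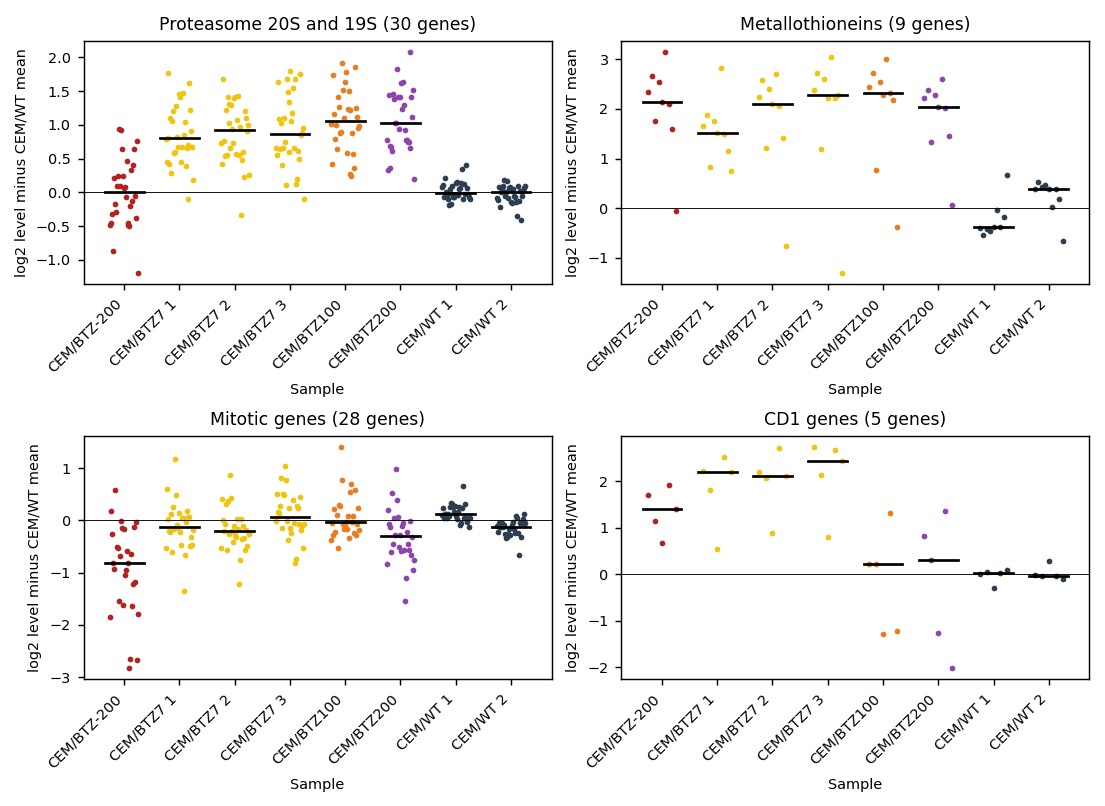
Log2 level minus the mean of CEM/WT (y axis) for the members of 4 gene lists in each sample of CEM/BTZ-200, CEM/BTZ7, CEM/BTZ100, CEM/BTZ200 and CEM/WT, with a bar at the median. The 30 proteasome genes have a median of 0.00 in CEM/BTZ-200 and 1.03 in CEM/BTZ200, while the metallothioneins have 2.14 and 2.03, the mitotic genes -0.81 and -0.30, and the CD1 genes 1.41 and 0.31.

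Metallothioneins, small cysteine-rich proteins that bind zinc and copper and are induced by free metal, had 1 of 9 measured genes called higher in CEM/BTZ-200, against 1.31% of all genes. All 9 had a log2 fold change above 0 (51.1% of all genes), with a median of 2.24, compared with 0.02 over all genes. The called member was MT1M, which had 13.56 in CEM/BTZ-200, against 10.38 and 10.44 in CEM/WT (3.38, SE 0.38, adjusted p = 0.0144). MT2A, the most widely expressed family member, had 17.10 in CEM/BTZ-200, against 15.32 and 15.69 in CEM/WT (1.77). MT1X had 16.002 in CEM/BTZ-200, against 13.52 and 14.28 in CEM/WT (2.19). In 8 of the 9 genes CEM/BTZ-200 lay above both parental samples, as it did in 39.2% of all genes, and MT3, a form known from brain, was the exception, with 13.05 in CEM/BTZ-200, against 13.76 and 12.43 in CEM/WT. Apart from MT1M and MT3 the adjusted p-values were 0.0852 to 0.0995. The list had medians of 1.98, 2.23 and 1.94 in CEM/BTZ7, CEM/BTZ100 and CEM/BTZ200 over the same CEM/WT samples. Transcripts of this family are nearly identical, so that a probe may also have captured its neighbors.

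Since these genes lie together on chromosome 16 and moved together, the 250 bases before the transcription start of the 4 members found in the RefSeq promoter table (build GRCh38.p14, all on the plus strand) are shown here. Capitals mark matches to the core of the metal response element, which the zinc-sensing factor MTF1 binds, searched as TGCACNC and TGCGCNC on both strands, with no match overlapping another.
MT1B, chr16:56651636-56651885: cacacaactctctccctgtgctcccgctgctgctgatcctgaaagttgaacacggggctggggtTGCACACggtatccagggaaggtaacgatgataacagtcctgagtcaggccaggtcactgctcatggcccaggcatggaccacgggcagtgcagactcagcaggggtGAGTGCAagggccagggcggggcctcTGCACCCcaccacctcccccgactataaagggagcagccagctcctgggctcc
MT1H, chr16:56669564-56669813: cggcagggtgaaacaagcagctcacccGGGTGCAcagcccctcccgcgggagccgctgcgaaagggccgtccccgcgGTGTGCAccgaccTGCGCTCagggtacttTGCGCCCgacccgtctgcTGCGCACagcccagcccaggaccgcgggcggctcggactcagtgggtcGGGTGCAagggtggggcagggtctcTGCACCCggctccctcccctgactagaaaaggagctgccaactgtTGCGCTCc
MT1X, chr16:56682220-56682469: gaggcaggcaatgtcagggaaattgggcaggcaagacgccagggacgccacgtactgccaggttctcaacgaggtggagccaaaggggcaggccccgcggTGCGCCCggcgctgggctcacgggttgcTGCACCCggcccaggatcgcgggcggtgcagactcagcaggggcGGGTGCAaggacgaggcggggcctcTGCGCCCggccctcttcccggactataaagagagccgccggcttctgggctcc
MT2A, chr16:56608334-56608583: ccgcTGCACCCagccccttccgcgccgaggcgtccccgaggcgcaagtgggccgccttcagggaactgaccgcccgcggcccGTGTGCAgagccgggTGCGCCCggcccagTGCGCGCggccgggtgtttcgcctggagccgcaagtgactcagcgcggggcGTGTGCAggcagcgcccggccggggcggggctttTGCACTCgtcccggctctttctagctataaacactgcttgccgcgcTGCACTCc
There were 3 matches before MT1B, 8 before MT1H, 4 before MT1X and 7 before MT2A. Of 35116 promoters of the same length, 24.8% held at least 1 match, 1.58% at least 3 and 0.37% at least 4. A match is a run of letters and does not show binding. MT1B and MT1H, whose promoters hold the fewest and the most, had log2 fold changes of 2.45 and 2.24, with levels of 15.65 in CEM/BTZ-200, against 12.92 and 13.71 in CEM/WT, for MT1B, and of 15.97 in CEM/BTZ-200, against 13.46 and 14.21 in CEM/WT, for MT1H.

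Several enzymes that oxidize or conjugate reactive compounds were higher in CEM/BTZ-200. Of 17 aldehyde dehydrogenases, 2 were called higher and none lower, and the median was 0.25, where 1.31% of all genes were called higher. ALDH2, the mitochondrial enzyme that clears acetaldehyde, had 12.10 in CEM/BTZ-200, against 6.86 and 7.30 in CEM/WT (log2 fold change 4.88, SE 0.24, adjusted p = 0.00219), and the other was ALDH7A1. ALDH2 was likewise at 12.46, 12.47 and 12.35 in CEM/BTZ7, 12.74 in CEM/BTZ100 and 10.21 in CEM/BTZ200. Of 16 glutathione transferases, 2 were called higher (1.31% of all genes) and none lower, with a median of 0.29. GSTM3 had 14.40 in CEM/BTZ-200, against 10.58 and 10.64 in CEM/WT (3.89, adjusted p = 0.00958), and GSTM1 had 10.49 in CEM/BTZ-200, against 6.68 and 6.62 in CEM/WT (3.86, adjusted p = 0.00598). The CEM/BTZ-200 values of both lay well above the closely spaced parental values, but mu-class transferases are similar enough in sequence that their probes may share signal.

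MGST1, a microsomal glutathione transferase, differed the other way without a call. It stood at 2.91 in CEM/BTZ-200, below background, against 8.80 and 8.39 in CEM/WT, and its adjusted p was 0.505, with an SE of 4.10. Its 3 CEM/BTZ7 samples were spread over 2.68, 7.94 and 9.71. The targets of NRF2, the factor that drives antioxidant genes, had 1 of 20 genes called higher, against 1.31% of all genes, and a median of 0.18. The called gene was AKR1C3, an aldo-keto reductase, with 13.56 in CEM/BTZ-200, against 10.73 and 11.19 in CEM/WT (2.66, adjusted p = 0.022). ABC drug transporters had 0 of 14 called by limma, and 5 at an unadjusted p under 0.05, against 3267 of all 17372 genes. ABCB1, the P-glycoprotein pump, had a log2 fold change of 1.77 (adjusted p = 0.237).

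**Figure D4:**
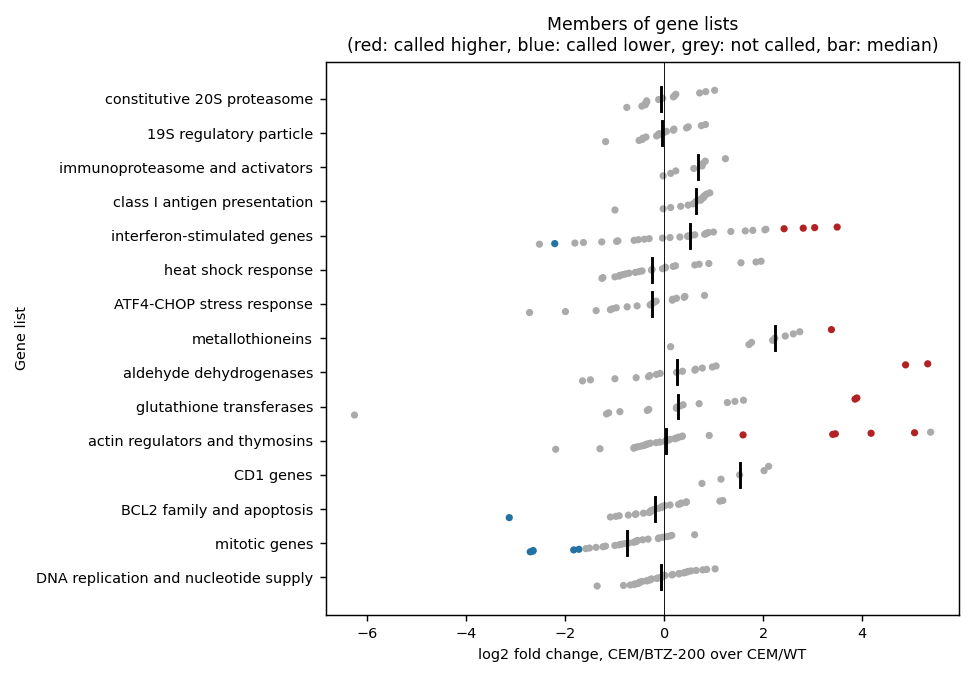
Log2 fold change of CEM/BTZ-200 over CEM/WT (x axis) for the measured members of 15 gene lists (rows), 1 point for each gene, with a bar at the list's median and called genes in color. The metallothionein list has the highest of the medians drawn, at 2.24, and the mitotic list lies to the left, at -0.76.

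Of 32 listed actin regulators and thymosins, 5 were called higher and 0 lower, against 1.31% and 1.76% of all genes, and the median was 0.04. TMSB15A, given above, was among the 5, and FMN1, the formin given among the falls, is not in this list. AIF1L, an actin-bundling calcium-binding protein, had 12.33 in CEM/BTZ-200, against 8.35 and 8.76 in CEM/WT (log2 fold change 3.46, adjusted p = 0.0125). PFN2, a profilin, had 9.24 in CEM/BTZ-200, against 8.25 and 7.62 in CEM/WT (1.59, adjusted p = 0.0398). In each the CEM/BTZ-200 level was above both parental levels. SCRN1, secernin 1, was another called member, with 10.57 in CEM/BTZ-200, against 7.34 and 7.36 in CEM/WT (3.41, adjusted p = 0.00958). ARHGEF26 was the last of the 5 (4.18, adjusted p = 0.0257), with 3.07 at another of its probes. ENAH, which elongates actin filaments, had 9.29 in CEM/BTZ-200, against 3.72 and 3.10 in CEM/WT, and with an SE of 1.23 it was not called (5.38, adjusted p = 0.0755). That was its brightest probe. The same limma model fitted to probes gave its others 3.74, 1.79 and 0.44 (adjusted p over probes = 0.0244, 0.0468 and 0.684). In the list of the MARCKS family and protein kinase C, 2 of 17 genes were called higher, MARCKS and PRKCA, against 1.31% of all genes. PRKCA, protein kinase C alpha, had 9.98 in CEM/BTZ-200, against 6.84 and 6.98 in CEM/WT (2.96, adjusted p = 0.04997, and 0.0873 with the replicate number as a block). A second, dimmer probe of PRKCA gave 0.54 (adjusted p over probes = 0.779 in limma).

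Interferon-stimulated genes had 4 of 32 called higher and 1 lower, against 1.31% and 1.76% of all genes, with a median of 0.51 and 20 of 32 above 0, against 51.1% of all genes. MX1, a GTPase that blocks viral nucleocapsids, had 11.53 in CEM/BTZ-200, against 7.91 and 8.18 in CEM/WT (log2 fold change 3.50, adjusted p = 0.0248). It was at 11.11, 11.51 and 10.80 in CEM/BTZ7, 9.51 in CEM/BTZ100 and 8.99 in CEM/BTZ200, so that CEM/BTZ-200 was near CEM/BTZ7, and its difference from CEM/BTZ200 was not called (2.56, adjusted p = 0.199). USP18, which removes ISG15 from proteins, had 11.50 in CEM/BTZ-200, against 8.54 and 8.77 in CEM/WT (2.81, adjusted p = 0.0329). IFIT5 (3.04, adjusted p = 0.0147) and OAS3 (2.42, adjusted p = 0.0175), which act on foreign RNA, were the other higher genes. SAMD9, an antiviral factor, was the lower one, at 7.58 in CEM/BTZ-200, against 9.91 and 9.97 in CEM/WT (-2.21, adjusted p = 0.027). For all of these genes CEM/BTZ-200 lay outside both CEM/WT values, as did 74.7% of all genes. They were picked because they were called, so that this adds nothing to the calls. The inducible subunits and activators of the immunoproteasome had a median of 0.68 and 7 of 8 above 0, and class I antigen presentation 0.64 and 13 of 15. In either list 0 genes were called. At an unadjusted p under 0.05 in limma there were 3 and 8 genes, against 3267 of all 17372.

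All 5 genes of the lipid-presenting CD1 molecules lay above 0 in CEM/BTZ-200, against 51.1% of all genes, the median being 1.53. None was called, the lowest adjusted p being 0.0533 for CD1A and CD1D. CD1A, a cortical thymocyte marker, stood at 10.79 in CEM/BTZ-200, against 9.10 and 9.08 in CEM/WT. Second, dimmer probes of CD1D, CD1A and CD1E gave 3.08, 1.88 and 2.25 (adjusted p over probes = 0.0183, 0.0602 and 0.272 in limma). The list's medians over the same CEM/WT samples were 2.29 in CEM/BTZ7, -0.10 in CEM/BTZ100 and 0.31 in CEM/BTZ200. CD1E had 9.41 in CEM/BTZ-200, against 5.99 in CEM/BTZ200, with 8.10 and 7.90 in CEM/WT, and CEM/BTZ-200 was higher than CEM/BTZ200 (3.66, adjusted p = 0.0427). DNTT, the terminal transferase of V(D)J recombination, was called higher, with 6.96 in CEM/BTZ-200, against 5.01 and 4.05 in CEM/WT (2.81, adjusted p = 0.0473), alone among 12 genes of that list. Among 29 regulators of the T lineage, ID1 was called higher (2.10) and IKZF2 lower (-1.70, each adjusted p = 0.0473, and 0.0647 for IKZF2 with the replicate number as a block). Of 33 T cell surface and receptor signalling genes, limma called 0 (8 at an unadjusted p under 0.05, against 3267 of all 17372 genes). EPCAM, an epithelial adhesion molecule, was the 1 of 10 epithelial markers that was called, with 9.44 in CEM/BTZ-200, against 6.11 and 6.18 in CEM/WT (3.16, adjusted p = 0.00929). Each of these lists held at most 1 called gene a direction. In lists of this size that is near the background of 1.31% higher and 1.76% lower over all genes.

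Of 28 measured genes of mitosis, 5 were called lower and 0 higher (1.76% of all genes were called lower), the median was -0.76, and 21 lay below both CEM/WT samples, as did 35.5% of all genes. CENPE, a kinetochore motor, was at 8.63 in CEM/BTZ-200, against 11.37 and 11.54 in CEM/WT (log2 fold change -2.71, adjusted p = 0.0131). CENPF, another kinetochore protein, was at 12.01 in CEM/BTZ-200, against 14.62 and 14.72 in CEM/WT (-2.65, adjusted p = 0.00958). ASPM, which acts at spindle poles, was at 10.16 in CEM/BTZ-200, against 12.69 and 12.95 in CEM/WT (-2.65, adjusted p = 0.0126). In these genes and in NDC80 (-1.83) and CDK1 (-1.72), the mitotic kinase, the CEM/BTZ-200 level was below both parental levels. The list had medians of -0.05, -0.05 and -0.39 in CEM/BTZ7, CEM/BTZ100 and CEM/BTZ200, and with median centring its median in CEM/BTZ-200 was -0.35 and 3 genes were called lower. With the mean of all probes of a gene, that median was -0.71 and 3 genes were called lower. DNA replication and nucleotide supply, which serve S phase, had 0 of 35 genes called and a median of -0.06. At an unadjusted p under 0.05 in limma there were 3 of them, against 3267 of all 17372 genes. CIP2A, an inhibitor of protein phosphatase 2A, was also lower, at 7.11 in CEM/BTZ-200, against 9.34 and 9.43 in CEM/WT (-2.37, adjusted p = 0.0297). Another probe of CIP2A, below background in CEM/BTZ-200, gave -0.41.

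Lists of the stress pathways that proteasome inhibition induces held 0 called genes, where 3.07% of all genes were called, so that a count of 0 in lists of this size is near the background. The heat shock response had 0 of 24, the ATF4-CHOP arm 0 of 19, and the ER chaperones with the XBP1-ATF6 arm 0 of 24. Their medians were -0.25, -0.25 and 0.32. At an unadjusted p under 0.05 in limma there were 5, 3 and 6 genes, against 3267 of all 17372. HSPA1A, the inducible HSP70, had 12.13 in CEM/BTZ-200, against 10.50 and 10.24 in CEM/WT, a log2 fold change of 1.96 with an adjusted p of 0.0824. XBP1 had 0.72 and SQSTM1, an autophagy receptor, -0.20. Among the genes of apoptosis, 1 of 28 was called, BCL2L2, an anti-apoptotic relative of BCL2, with 6.04 in CEM/BTZ-200, against 9.32 and 9.36 in CEM/WT (-3.13, adjusted p = 0.011). The level was below both parental levels, while BCL2 itself had 0.12 and PMAIP1, a BH3-only protein, 0.35, neither called.

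Other lists of degradation and signalling held at most 1 called gene a direction, which in lists of this size is near the background of 1.31% higher and 1.76% lower. GABARAPL1, which coats autophagosomes, had 10.70 in CEM/BTZ-200, against 7.96 and 7.77 in CEM/WT (log2 fold change 2.90, adjusted p = 0.0111), the 1 called of 25 autophagy genes. UCHL1, a ubiquitin hydrolase of neurons, was at 5.02 in CEM/BTZ-200, against 2.59 and 2.55 in CEM/WT, below background there, and was at least 3.67-fold higher (adjusted p = 0.00958). NEDD4, a ubiquitin ligase, was lower (-1.62, adjusted p = 0.0297). TP53I3, a quinone oxidoreductase induced by p53, had 9.94 in CEM/BTZ-200, against 5.92 and 5.83 in CEM/WT (4.22, adjusted p = 0.0048), whereas CDKN1A, the p53-induced cell cycle inhibitor, had 0.13 and was not called.

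Single calls were also made for REL, an NF-kappaB subunit (-1.62, adjusted p = 0.0492), DUSP6, a phosphatase of ERK (-1.58, adjusted p = 0.0284), CTH, the cystathionine gamma-lyase of cysteine synthesis (1.88, adjusted p = 0.0221), TERT, the telomerase reverse transcriptase (1.89, adjusted p = 0.0384), NOP58, a nucleolar protein (-1.93, adjusted p = 0.0176), and NDUFA5, of respiratory complex I (-1.70, adjusted p = 0.0261, with 0.04 at another of its probes). Lists for cholesterol synthesis, glycolysis, histones, cytosolic and mitochondrial ribosomal proteins, purine synthesis, vesicle secretion, annexins and B cell markers had 0 genes called by limma. Each had 1 to 6 genes at an unadjusted p under 0.05 in limma, against 3267 of all 17372 genes. The annexins and S100 proteins had a median of -0.39, with 17 of 20 genes below 0, against 8500 of all 17372 genes. Their medians over the same CEM/WT samples were -0.55 in CEM/BTZ7, -0.15 in CEM/BTZ100 and -0.69 in CEM/BTZ200. ELANE, a neutrophil protease, was at 3.44 in CEM/BTZ-200, against 11.07 and 12.05 in CEM/WT, and its adjusted p of 0.108 did not pass the test.

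Within the subline, CEM/BTZ-200 against CEM/BTZ200, which had BTZ at harvest after either continued culture in it or a 24 h exposure, 55 genes were called, 51 higher and 4 lower (0.317%; 0.294% and 0.0230%), with 93 called when the replicate number was a block. It had 1 sample on each side, of different dyes, and without any 1 of the other 8 replicates it called 0 to 8 genes, with 1397 to 1816 at an unadjusted p under 0.05 where limma called 0. In 46 of the 51 higher genes CEM/BTZ200 had a lower level than every CEM/WT, CEM/BTZ7 and CEM/BTZ100 sample. Some of these CEM/BTZ200 levels were below background, such as 2.38 for CD28. Against CEM/WT, 40 of the 51 were not called in CEM/BTZ-200, 7 were called higher and 4 lower, and their median log2 fold change was 0.35. CEM/BTZ-200 and CEM/BTZ200 share the CEM/WT samples in these values.

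The following genes were chosen from the 55 after their values had been seen. HTATIP2, an oxidoreductase and metastasis suppressor, was at 10.82 in CEM/BTZ-200, against 4.21 in CEM/BTZ200, with 11.39 and 11.27 in CEM/WT (log2 difference from CEM/BTZ200 6.46). CD28, the T cell costimulatory receptor, was at 7.94 in CEM/BTZ-200, against 2.38 in CEM/BTZ200, with 6.72 and 6.64 in CEM/WT. GDF10, a ligand of the TGF-beta family, was at 10.46 in CEM/BTZ-200, against 5.06 in CEM/BTZ200, with 12.61 and 12.73 in CEM/WT. In each of these genes CEM/BTZ-200 lay nearer to CEM/WT than CEM/BTZ200 did. GDF10 was also low in CEM/BTZ7, at 5.74 to 6.11, and CD28 in CEM/BTZ100, at 2.62. The CD28 levels in CEM/BTZ200 and CEM/BTZ100 were below background. CFTR, a chloride channel, differed in this respect, with 9.60 in CEM/BTZ-200, against 6.36 in CEM/BTZ200, 9.69, 9.84 and 10.56 in CEM/BTZ7 and 5.72 and 5.52 in CEM/WT. The 4 lower genes were DYNC1I1, a dynein chain (4.25 in CEM/BTZ-200, against 9.44 in CEM/BTZ200), CCDC80, a matrix protein (2.81, against 7.24), ZNF654, a zinc finger protein (3.19, against 6.88), and OR12D3, an olfactory receptor (2.59, against 5.12). All 4 were below background in CEM/BTZ-200, where the percentile was 4.47, so that these differences are no measured sizes.

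**Figure D5:**
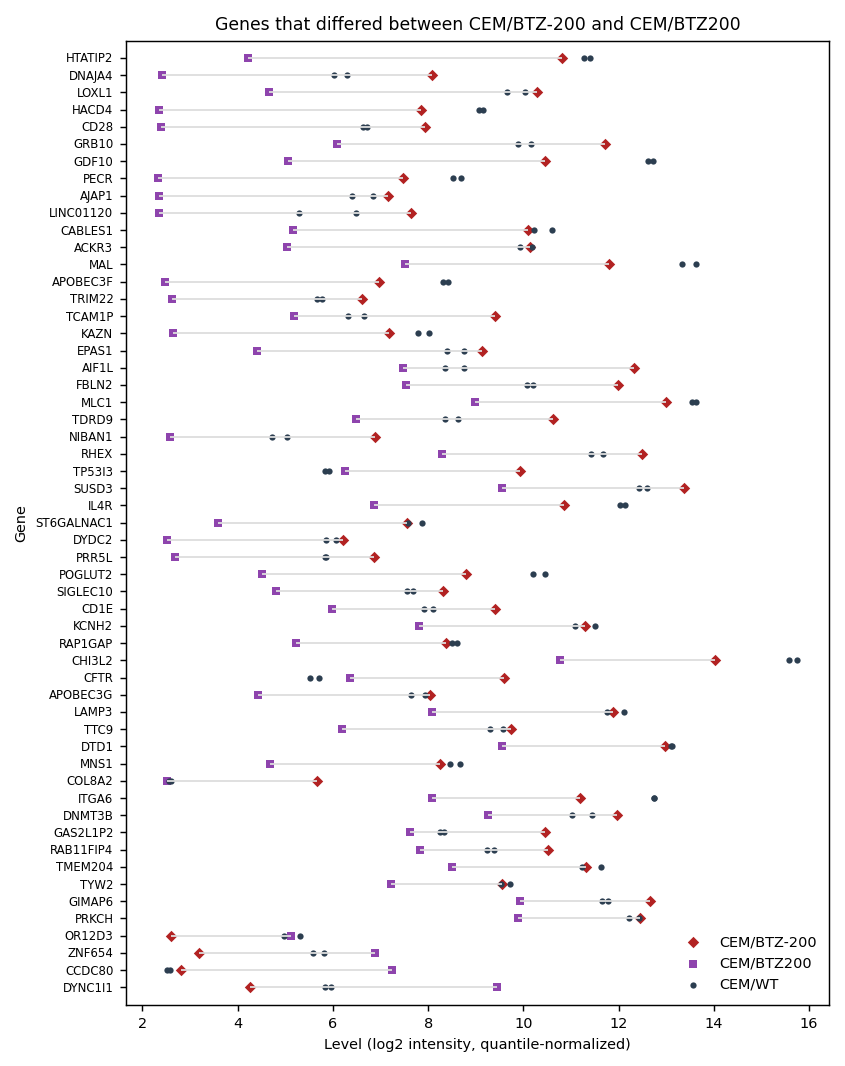
Log2 levels (x axis) of the 55 genes called between CEM/BTZ-200 and CEM/BTZ200 (rows), with points for CEM/BTZ-200, CEM/BTZ200 and the 2 CEM/WT samples. In 51 rows CEM/BTZ-200 lies to the right of CEM/BTZ200, and in 4 it lies to the left.

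Against CEM/BTZ7, the subline selected at the lowest dose, 252 genes were called, 80 higher and 172 lower (1.45%; 0.461% and 0.990%), and with median centring 63 and 61. Leaving out 1 replicate gave 11 calls (without CEM/BTZ7 replicate 2) to 206 calls. Apart from ANO1, ECM1, LYST and PSMA3, the named genes that differed included PRKCA (log2 difference 3.67, adjusted p = 0.0385) and UCHL1 (at least 4.30-fold, adjusted p = 0.0119) on the higher side and EPCAM (-2.31, adjusted p = 0.0230) on the lower side. EPCAM was therefore higher than in CEM/WT and lower than in CEM/BTZ7. The mitotic genes CENPF (-1.94, adjusted p = 0.0240) and ASPM (-2.16, adjusted p = 0.0256) were lower than in CEM/BTZ7 as well.

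On chromosome X, 3 genes of the TCEAL family were called lower, with genes that were not called lying between them. TCEAL6, of a family related to transcription elongation factor A, was at 4.30 in CEM/BTZ-200, below background, against 8.89 and 8.86 in CEM/WT, at least 21.2-fold lower (adjusted p = 0.00571). TCEAL3 was at 5.48 in CEM/BTZ-200, against 9.30 and 9.24 in CEM/WT (log2 fold change -3.59, adjusted p = 0.022), and TCEAL5 at 5.04 in CEM/BTZ-200, against 8.64 and 8.82 in CEM/WT (-3.59, adjusted p = 0.0237). All 3 lay below both parental samples, and these paralogs are similar enough that probes may share signal. TCEAL6 had -4.59 in CEM/BTZ200, -0.78 in CEM/BTZ100 and 0.66 in CEM/BTZ7, each over the shared CEM/WT samples, and CEM/BTZ-200 was at least 32.2-fold lower than CEM/BTZ7 (adjusted p = 0.00351). TCEAL9, another member of the family, was at 9.21 in CEM/BTZ-200, against 10.11 and 10.09 in CEM/WT, and was not called, with 5.97 in CEM/BTZ200. Also not called were TCEAL8 (-0.23) and BEX4 (1.51), which lie between TCEAL6 and TCEAL5, and TCEAL4 (-0.22), between TCEAL5 and TCEAL3. Over whole chromosomes, the median log2 fold change of CEM/BTZ-200 over CEM/WT ranged between -0.14 for chromosome 18 and 0.15 for chromosome 19. Chromosome 14, which carries PSMA3 and PSMB5, had 0.12, and the same median was 0.39 for CEM/BTZ7, 0.42 for CEM/BTZ100 and 0.30 for CEM/BTZ200.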

How the data were processed

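Expression was profiled in 11 samples on Agilent human genome arrays, with 1 dye for each sample. The intensities were deposited by the authors as Agilent Feature Extraction signals, not normalized between arrays, with no version stated. The deposited log2 values, made by the authors with limma by background correction, loess and quantile normalization, served as an alternative. Which samples shared an array was not given. The 3 CEM/BTZ7 columns of the log2 table correlated best with intensity columns of another number, and the names of the intensity columns were kept. If the intensity columns are the misnamed ones, CEM/BTZ7 replicates 2 and 3 carry the wrong dye in the model. A fit with those dyes exchanged was not run.

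Intensities were quantile-normalized and put on the log2 scale with no pseudocount. Of 41000 probes, 37422 exceeded the 95th percentile of 153 negative control spots in at least 2 samples. For 17372 genes the probe with the highest mean level was kept, without those that carried several gene symbols (84) or no symbol (11672). A linear model with the 6 groups and a dye term was estimated in limma 3.58.1 (R 4.3.3, with statmod 1.5.0 for blocks), with 4 residual and 2.40 prior degrees of freedom, 2-sided, and the fit was tested on simulated data. The dye term called 0 genes (743 at an unadjusted p under 0.05). An "at least" fold set a group below background at the higher of its level and that percentile in each sample.

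Replicate numbers pair the samples, since the deviations of same-numbered samples of CEM/WT, CEM/WT_BTZ and CEM/BTZ7 from their group means correlated at 0.295 to 0.534 in all 7 pairs. The number was therefore also fitted as a random block. Genes were named by rule: the 12 largest called rises and falls, up to 4 called members of each list (or 2 members where none was called), and genes in the study's text and cell type markers. Some further genes are given outside this rule, among them PFN2, MGST1, SAMD9, CDK1, MT2A, MT1X, MT1B, MT1H, TCEAL3 and TCEAL5. Their values were not followed over the alternatives. The lists and comparisons were chosen with earlier results of these data known. Alternatives were other normalizations, filters, probe summaries and dye terms, and leaving out each replicate.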

Additional observations from a re-analysis of the deposited data

Results flagged for a closer look

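For 16 of the named genes the change against CEM/WT in CEM/BTZ-200 differed from that in another subline by limma's test of the difference itself, in which the CEM/WT samples cancel. Set against CEM/BTZ7, the fitted log2 difference was 5.32 for ANO1 (adjusted p = 0.00199), 3.67 for PRKCA (0.0385) and 2.46 for UCHL1 (0.0119) on the higher side. The lower side held membrane-traffic, matrix and actin genes, with -4.48 for LYST (0.0240), -3.90 for ECM1 (0.0430) and -2.42 for FMN1 (0.0198), and TCEAL6 with -5.08 (0.00351) and EPCAM with -2.31 (0.0230). For 6 of these genes 1 side was below background, so that the fitted difference is no measured size. The bounds were at least 31.1-fold higher in CEM/BTZ-200 for ANO1 and 4.30-fold for UCHL1, and at least 7.53-fold lower for ECM1, 6.19-fold for LYST, 32.2-fold for TCEAL6 and 1.5996-fold for FMN1. The lower side also held CENPF with -1.94 (0.0240) and ASPM with -2.16 (0.0256), which act in mitosis, NOP58 with -1.70 (0.0308), NDUFA5 with -1.92 (0.0240) and the proteasome subunit PSMA3 with -2.03 (0.0198).

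Set against CEM/BTZ200, the same subline with drug, AIF1L (4.23, adjusted p = 0.0362), TP53I3 (4.005, 0.0276) and CD1E (3.66, 0.0427) were higher in CEM/BTZ-200. AIF1L was at 12.33 in CEM/BTZ-200, against 7.47 in CEM/BTZ200, 11.80, 11.91 and 11.61 in CEM/BTZ7 and 8.35 and 8.76 in CEM/WT. In AIF1L the drug-free sample was thus near CEM/BTZ7, and CEM/BTZ200 was below every other sample given here. Both samples of this comparison are single and of different dyes.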

How the results depend on the processing

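The counts of calls moved widely, and the named called genes nearly all kept their direction while the sizes of some moved. Over the alternatives the log2 fold change ranged from 6.01 to 7.70 for MARCKS, from 1.77 to 6.16 for OSR2 and from -5.42 to -2.27 for LYST. Of 57 named called genes, 56 kept their direction under every one of 19 alternatives that measured them (42 of the 57 had a probe above background in all 11 samples), and ATP11A reversed, to 0.73 without the CEM/WT_BTZ samples (adjusted p = 0.870). The 534 calls of CEM/BTZ-200 against CEM/WT were 837 in the deposited log2 table, 1062 without the dye term, 855 with a trend and robust moderation, 133 in a fit of the 3 drug-free samples and 97 without the CEM/WT_BTZ samples. They were 538 with 75th percentile scaling (183 higher, 355 lower) and 359 with median centring (210 higher, 149 lower), which shifted the median of all genes to 0.25, and 0 to 595 with a replicate left out. With the replicate block 759 genes were called, 497 of them shared with the 534, and the named calls lost were PRKCA and IKZF2. The 55 calls against CEM/BTZ200 were 106, 225 and 100 with the deposited log2 table, without the dye term and with the trend, 93 with the replicate block, 0 without the CEM/WT_BTZ samples (1964 at an unadjusted p under 0.05) and 0 to 8 with a replicate left out (1397 to 1816 unadjusted where 0 were called). The 252 calls against CEM/BTZ7 were 446, 732 and 694 with those 3 settings, 319 with the replicate block, 124 with median centring (63 higher, 61 lower), 392 with no filter, 469 with probes above background in all 11 samples, 0 without the CEM/WT_BTZ samples (3407 unadjusted) and 11 to 206 with a replicate left out. The cause of these moves was not tested.

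CEM/BTZ-200 was 1 sample, so its own spread was not measured. Of 24 named called genes with several probes, 3 had probes of opposite sign, ALDH7A1, ATP11A and NDUFA5. Probes of the same sign could still differ in size. They ranged from -5.58 to -0.12 in PNMA8A and from 0.55 to 5.18 in FAM131A, while those of DHRS2 gave 6.97 and 7.08. CEM/BTZ-200 had the highest background percentile of the 11 samples, which limits what falls can show. Its dye is shared with CEM/WT replicate 2 and not with replicate 1, and with 1 sample its dye and its group are separated by the dye term alone.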
